A study of Mus musculus with 6 samples.

Results

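Uninjured tibialis anterior muscle (TAM) of hypothyroid mice was compared with that of control mice by single-cell RNA sequencing, in all cells and in 2 sets of cells defined by marker genes. The members are the cells of the 2 uninjured libraries, 1680 of the 11207 cells in the first run of columns of each of the 6 deposited libraries, and of 20269 columns in all. Cells with at least 1 unique molecular identifier (UMI) of *Pdgfra* and at least 1 of *Dcn* are called FAP-gated cells here (683 cells), and cells with at least 1 UMI of *Cdh5* are called *Cdh5*-gated cells (104 cells). A UMI marks a captured RNA molecule. Columns were read up to the point where the cell barcodes leave alphabetical order, because the columns after that point repeat cells of other libraries. The later columns of the control file hold 1152 cells that also open the hypothyroid 14 dpi library, and those of the hypothyroid file hold 528 cells of the control 5 dpi library. The 2 uninjured first runs share 0 barcodes. The files hold no independent record with which to check that a first run comes from the diet its label names.

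Both libraries came from male Pax7-Fucci mice, 3 to 5 months old and without a Cre recombinase in both diets. This line was bred from a B6;129 stock with the Gt(ROSA)26Sor<tm1(Fucci2aR)Jkn allele, a cell-cycle reporter, and Pax7-Cre mice. Hypothyroid mice ate an iodine-deficient diet with 0.15% propylthiouracil (PTU), an inhibitor of thyroid hormone synthesis, and control mice ate a matched diet. Muscle was taken after 3 weeks of diet without cardiotoxin (day 0), and cells of 3 mice were pooled in each library. The diet therefore acted on the whole animal, and effects of low hormone, of PTU and of low iodine cannot be told apart. With 1 pooled library on each side there is no replicate and no test. Each ratio of hypothyroid over control is given with an exact 95% interval that covers counting error of UMIs only. Differences between mice, between preparations or between the cells of a gate are not in it.

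Fibro-adipogenic progenitors (FAPs) are stromal cells that lie between muscle fibres. They secrete most of the interstitial collagen of muscle, pass signals to muscle stem cells and leukocytes, and can give rise to fibroblasts and fat cells. *Cdh5* encodes VE-cadherin, the adhesion protein of junctions between endothelial cells. Thyroid hormone acts through nuclear receptors, encoded by *Thra* and *Thrb*, which bind DNA with retinoid X receptors and recruit corepressors or coactivators depending on whether hormone is bound.

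The control library held 5931954 UMIs in 1152 cells, with a median of 4589 UMIs per cell, and the hypothyroid library 2283740 UMIs in 528 cells, with a median of 3634. Mitochondrial transcripts took 3.84% and 3.79% of UMIs. FAP-gated cells were 506 of 1152 control cells (43.9%, exact binomial interval 41.0% to 46.8%) and 177 of 528 hypothyroid cells (33.5%, 29.5% to 37.7%). Because a deeper cell passes such a gate more often, each cell was also thinned to 1000 UMIs, leaving out 85 and 38 shallower cells. The shares were then 18.9% (16.6% to 21.4%) and 15.5% (12.4% to 19.0%), with intervals that overlap. The median FAP-gated cell held 5586.5 UMIs in control and 4587 in hypothyroid. *Cdh5*-gated cells were 80 (6.94%, 5.54% to 8.57%) and 24 (4.55%, 2.93% to 6.69%), and 3.84% and 2.24% after thinning. Cells in neither gate were 568 (49.3%) and 327 (61.9%).

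The gates were checked against marker genes. With the gate genes *Pdgfra* and *Dcn* left out, the other 8 FAP-like markers, none at 0 in either library, summed to 34035 CPM in control and 28363 in hypothyroid FAP-gated cells, against 28.4 and 31.3 for 11 endothelial-like markers and 10.5 and 11.5 for 11 monocyte/macrophage-like markers. Transcripts of muscle fibres were present in them as well: 10 myocyte-like markers summed to 3860 CPM in control and 11101 in hypothyroid. The *Cdh5* gate held 10 endothelial-like markers, *Cdh5* left out, at 12210 and 14352 CPM. In control it also held FAP-like markers at 7156, tenocyte-like markers at 2762 and Schwann or glial-like markers at 719, which stood at 178, 13.7 and 0 in the hypothyroid gate, where 6 of the 10 FAP-like markers were at 0. Monocyte/macrophage-like markers were at 0 in all 11 genes in the *Cdh5* gate of both libraries.

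Across 7138 genes with at least 50 UMIs over both libraries in FAP-gated cells, the median ratio was 0.981. A gene was counted as higher or lower where the end of its interval nearest 1 lay past 1.5-fold, a rule of size and not a test. Levels are counts per 1000000 UMIs of the gate (CPM). By this rule 98 genes were higher (1.37%) and 103 lower (1.44%) in hypothyroid muscle. The genes that were lower included collagens and other matrix genes, interferon stimulated genes and genes of cholesterol synthesis, and those that were higher included transcripts of muscle fibres and immediate early genes. For 8 of the higher and 8 of the lower genes, 1 cell held over 50% of the UMIs in the library with more.

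**Figure D1:**
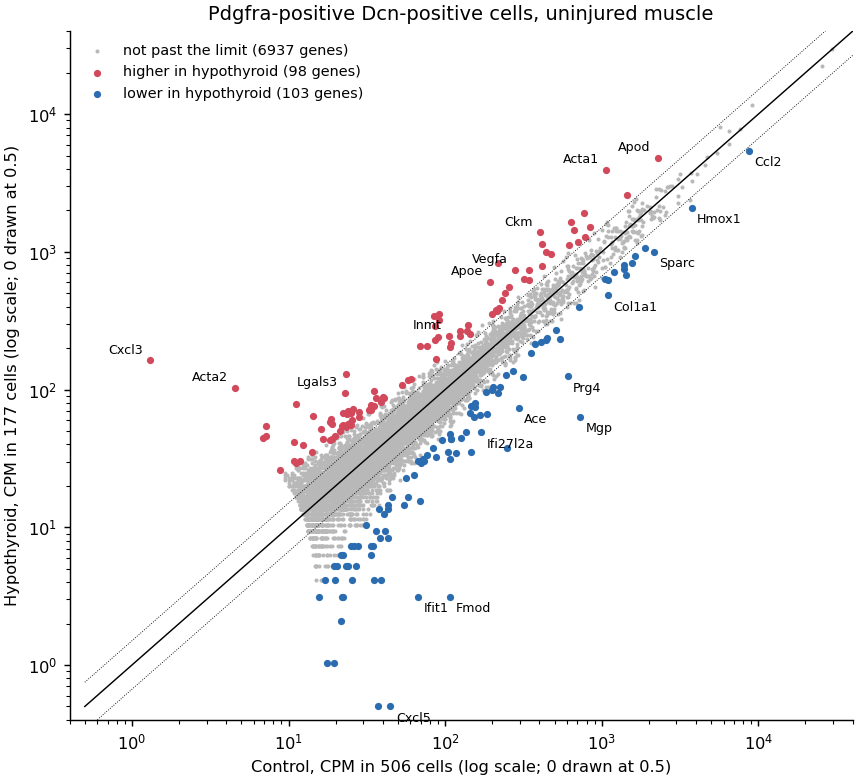
CPM of each gene in control (x axis) and hypothyroid (y axis) FAP-gated cells, both on log scales, with genes past the 1.5-fold limit in colour, a solid line at equality and dotted lines at 1.5-fold; genes at 0 are drawn at 0.5. Most of the 7138 genes lie between the dotted lines, *Mgp* and *Prg4* lie far below them, and *Apod* and *Acta1* above.

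Genes of the extracellular matrix formed one group on the lower side. Of 29 measured genes for fibrillar collagens and interstitial matrix, 8 were lower and 0 higher, with 6 of 29 above a ratio of 1 and a median of 0.687. The shares over all genes measured in FAP-gated cells were 1.44% lower and 1.37% higher. *Col1a1*, which encodes the alpha 1 chain of type I collagen, stood at 1098 CPM in control and 482 in hypothyroid FAP-gated cells (ratio 0.439, interval 0.398 to 0.484). Its partner chain gene *Col1a2* stood at 1421 and 680.2 (ratio 0.479, 0.44 to 0.52), and *Col3a1*, the chain of type III collagen, at 1642 and 926 (ratio 0.564, 0.525 to 0.606). The minor fibrillar chains *Col5a1* (0.518) and *Col5a2* (0.53) and the microfibril chain *Col6a3* (0.534) were lower too, as was *Fmod*, described below. *Sparc*, a collagen-binding glycoprotein, had 2161 CPM in control and 1006 in hypothyroid (ratio 0.466, 0.435 to 0.498). The list was not uniform: *Lum* (0.977) and *Col14a1* (0.98), which encode fibril-associated proteins, were near 1, and *Vcan* (1.55), *Thbs1* (1.57) and *Postn* (2.2) were above 1 without passing the limit. With the later columns of each file included, which hold cells of injured libraries, *Col1a1* stood at 2.64.

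Genes that process or crosslink collagen included further lower members. Of 20 measured, 3 were lower, 0 higher and 4 above a ratio of 1, with a median of 0.762. These counts and those below stand beside 1.44% lower and 1.37% higher of all genes measured in FAP-gated cells. *Adamts2*, the protease that trims the amino-terminal propeptide of procollagen, stood at 136 and 49 CPM in control and hypothyroid (ratio 0.359, 0.26 to 0.486). *Pcolce*, which enhances cleavage of the other propeptide, stood at 439 and 230.2 (ratio 0.525, 0.453 to 0.606), and *Loxl1*, a crosslinking oxidase, at 149 and 76 (ratio 0.51, 0.393 to 0.654). Of 16 measured basement membrane genes, 4 were lower, 0 higher and 1 above a ratio of 1, with a median of 0.694. They were *Col15a1* (314 and 124, ratio 0.395, 0.324 to 0.478), the perlecan gene *Hspg2* (0.54), the laminin chain gene *Lamb2* (0.519) and *Sparc*, which is in both lists. Of 15 elastic fibre and microfibril genes, 2 were lower, *Mgp* and the fibrillin gene *Fbn1* (1102 and 629, ratio 0.571, 0.523 to 0.623), with a median of 0.987 over the list. Among 23 matrix proteases and inhibitors, 2 were lower and 0 higher, the aggrecanase gene *Adamts5* (0.55) and *Serpinf1* (0.599), a secreted serpin.

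Shares of cells with a UMI were compared at equal depth, in cells gated before thinning. After thinning to 1000 UMIs, *Col1a1* was seen in 57.3% (52.8% to 61.7%) of control and 34.7% (27.7% to 42.2%) of hypothyroid FAP-gated cells, against 84.2% and 75.1% without thinning. *Sparc* was seen in 69.7% (65.4% to 73.7%) and 52.8% (45.2% to 60.4%) after thinning. In control *Cdh5*-gated cells, which should lack it, *Col1a1* was seen in 13.3% of 60 thinned cells and in 15.0% without thinning.

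*Mgp*, *Prg4*, *Ace* and *Thy1* had lower ratios than *Col15a1*, the collagen gene with the lowest ratio among those measured. *Mgp* encodes matrix Gla protein, an inhibitor of calcification, and lies on chromosome 6 at 136849433 to 136852821 (mm39). It stood at 726 CPM in control and 63.5 in hypothyroid FAP-gated cells (ratio 0.0875, 0.0667 to 0.113), from 2222 and 61 UMIs. After thinning it was seen in 32.1% (28.1% to 36.4%) of control and 5.11% (2.36% to 9.49%) of hypothyroid FAP-gated cells, against 54.0% and 16.9% without thinning. *Mgp* is also made by endothelium, and *Cdh5*-gated control cells held it in 28.3% after thinning. That control gate also held FAP-like markers at 7156 CPM. Among its 64 cells without UMIs of *Pdgfra*, *Dcn* or *Ptprc*, 12 held *Mgp* before thinning. *Prg4*, the joint lubricant lubricin, stood at 606 and 125 CPM (ratio 0.206, 0.17 to 0.248). *Ace*, which encodes angiotensin-converting enzyme, stood at 295 and 74 (ratio 0.25, 0.194 to 0.319), and *Thy1*, a surface glycoprotein used as a fibroblast marker, at 147 and 35.4 (ratio 0.241, 0.165 to 0.342). No single cell dominated these 4 genes: the cell with most UMIs held 6.48%, 9.06%, 1.44% and 3.11% of the control UMIs, respectively. Other genes among the first 10 on the lower side had fewer UMIs or rested on few cells. *Fmod*, the fibromodulin gene, had 329 and 3 UMIs, with 45.6% of the control UMIs in 1 cell. *Cxcl5* and *Il1rl1*, a neutrophil chemokine and the receptor of interleukin 33, had 137 and 0 and 114 and 0 UMIs, at least 14.3-fold and 11.9-fold lower when a count of 0 is taken as up to 3 UMIs, with 51.1% and 39.5% in 1 control cell. *Anxa8*, an annexin, had 120 and 4 UMIs, and *Oasl1* and *Myod1* had 60 and 1 and 107 and 4, with 53.3% and 75.7% of the control UMIs in 1 cell. The 7 tenocyte-like markers summed to 266 CPM in control and 91.7 in hypothyroid, with 1 of them at 0 in hypothyroid, and their part in the matrix values was not tested.

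Interferon stimulated genes, which cells switch on after sensing interferon, formed another group on the lower side. Of 27 measured, 9 were lower and 0 higher, 4 were above a ratio of 1, and the median was 0.629 against 0.981 over all genes tested. Over all genes tested in FAP-gated cells, 1.44% were lower and 1.37% higher. *Isg15*, a ubiquitin-like modifier, stood at 105 CPM in control and 35.4 in hypothyroid FAP-gated cells (ratio 0.338, 0.23 to 0.482). *Ifit1*, which binds foreign RNA, stood at 67 and 3.13 (ratio 0.0466, 0.00954 to 0.138), with 35.1% of the control UMIs in 1 cell. *Ifi27l2a* stood at 170.3 and 49 (ratio 0.288, 0.209 to 0.388), and *Ifitm3*, a membrane protein that blocks virus entry, at 1193 and 713 (ratio 0.597, 0.55 to 0.648). The others were *Rsad2* (54 and 1 UMIs), *Gbp3* (ratio 0.224), *Rtp4* (0.266), *Ifit3* (0.281) and the immunity-related GTPase gene *Iigp1* (0.508). The transcription factors of the pathway did not pass the limit: *Stat2* was at 0.804, *Irf9* at 1.14, *Irf1* at 1.07 and *Irf7*, with 55 and 5 UMIs, at 0.29. Outside the list, 3 more genes known to respond to interferon were lower and were picked after their values were seen: the RNA sensor gene *Ifih1* (0.288), *Slfn5* (0.394) and *Ifi203* (0.433). Of 10 MHC class I genes, 0 passed the limit either way and the median was 1.02.

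The letters GAAANNGAAA, the core of the interferon-stimulated response element (ISRE), were searched on both strands of the promoters in RefSeq for GRCm38.p6, from 250 bases before to 50 bases after each start. They occur in 943 of 27025 promoters (3.49%). Of the 9 lower interferon stimulated genes, 6 had a promoter in the table and all 6 held the letters, against 7 of 16 (43.8%) of the list's genes that were tested and did not pass the limit. Over all lower genes 13 of 80 (16.2%) held them, and over all higher genes 3 of 66 (4.55%). In the whole interferon list 14 of 25 promoters (56%) held them. Stretches from 5 of the 6 promoters of lower interferon stimulated genes are shown, since these 6 share the letters. The match and overlapping matches are in capitals, 5′ to 3′ on the strand of the gene, and a match on the other strand reads TTTCNNTTTC. A match is a description of the sequence and not a site shown to be bound.
Ifit1: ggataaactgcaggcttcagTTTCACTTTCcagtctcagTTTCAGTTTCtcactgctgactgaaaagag
Ifit3: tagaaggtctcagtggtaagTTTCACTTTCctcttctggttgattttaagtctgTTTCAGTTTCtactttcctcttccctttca
Isg15: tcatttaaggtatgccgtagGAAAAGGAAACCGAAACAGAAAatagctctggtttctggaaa
Rsad2: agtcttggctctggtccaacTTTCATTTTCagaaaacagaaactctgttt
Gbp3: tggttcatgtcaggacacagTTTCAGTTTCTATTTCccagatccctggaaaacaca

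The stretches lie at chr19:34640765-34640833 (plus strand) for *Ifit1*, chr19:34583353-34583436 (plus strand) for *Ifit3*, chr4:156200855-156200916 (minus strand) for *Isg15*, chr12:26456543-26456592 (minus strand) for *Rsad2* and chr3:142559979-142560034 (plus strand) for *Gbp3*. All lie before the annotated start of their gene, from 176 bases (*Ifit3*) to 10 bases (*Gbp3*) upstream. *Ifit1*, *Ifit3* and *Gbp3* hold 2 matches each, which overlap in *Gbp3*, *Isg15* holds 3 that overlap, and *Rsad2* holds 1.

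Genes of cholesterol synthesis, a list added after the values had been seen, lay below 1 in 17 of 18 measured genes, the exception being the sterol sensor gene *Insig2* (1.17). Of them 5 were lower and 0 higher, beside 1.44% and 1.37% of all genes measured in FAP-gated cells. Their median was 0.547, and their sum stood at 1633 CPM in control and 889 in hypothyroid FAP-gated cells. *Cyp51*, the lanosterol demethylase, stood at 117 and 34.4 (ratio 0.295, 0.2 to 0.421), and *Idi1*, the isopentenyl diphosphate isomerase, at 186 and 66.7 (ratio 0.358, 0.272 to 0.464). *Hmgcs1*, which makes HMG-CoA, stood at 217 and 94.8 (ratio 0.437, 0.347 to 0.545), *Msmo1* at a ratio of 0.449 and *Insig1*, which encodes another sterol sensor of the endoplasmic reticulum, at 0.482. *Srebf1*, which encodes a transcription factor of lipid synthesis and is in no list, was higher, at 22.2 and 55.2 CPM (ratio 2.48, 1.7 to 3.61), and its relative *Srebf2* stood at 0.543. The letters TCACNCCAC, a form of the sterol regulatory element, occur in 330 of 27025 promoters (1.22%) and in 1 of the 5 lower genes. That gene is *Hmgcs1*, whose stretch at chr13:119690194-119690242 (plus strand) is shown with the match in capitals.
Hmgcs1: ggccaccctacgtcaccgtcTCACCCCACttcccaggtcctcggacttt

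**Figure D2:**
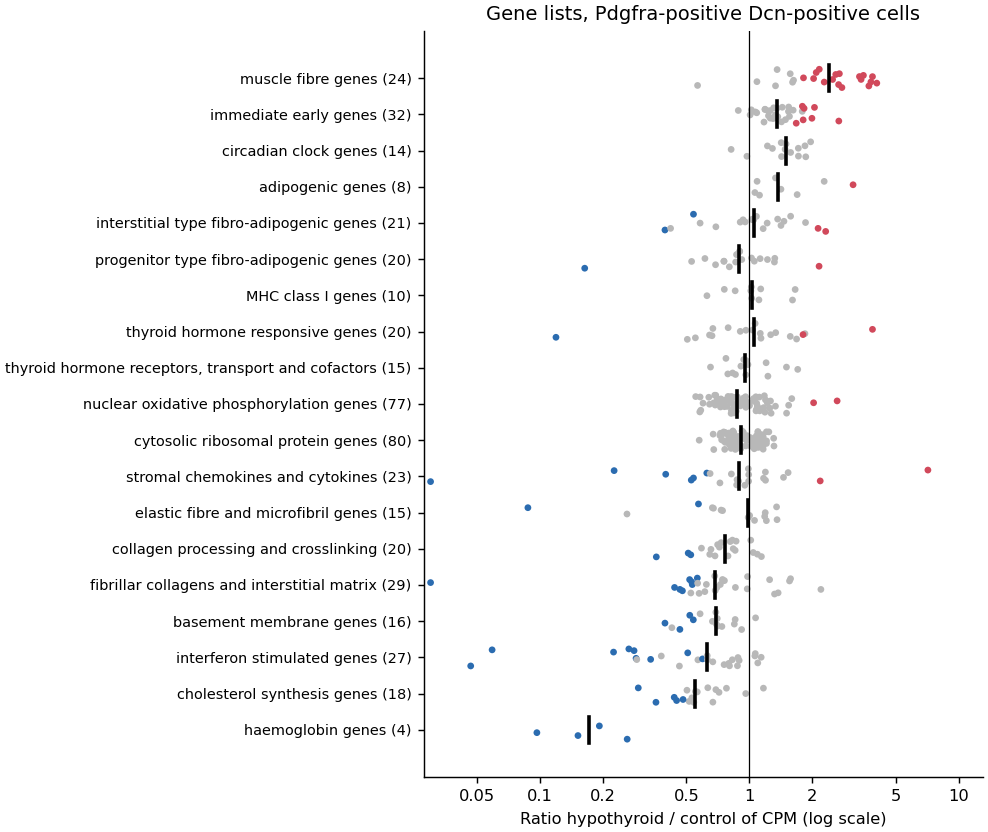
Ratio of hypothyroid over control in FAP-gated cells (log scale) for the measured genes of 19 gene lists, with the number of genes in brackets, points past the limit in colour and a black bar at the median of each list; *Cxcl5*, with 0 UMIs in hypothyroid cells, is drawn at the left edge. Muscle fibre genes sit to the right of 1 with a median of 2.39, and haemoglobin, cholesterol synthesis and interferon stimulated genes to its left.

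On the higher side, *Apod* had the most UMIs among the genes past the limit. *Apod* encodes apolipoprotein D, a lipid carrier, and stood at 2271 CPM in control and 4836 in hypothyroid FAP-gated cells (ratio 2.13, 2.05 to 2.21). After thinning it was seen in 49.3% (44.8% to 53.8%) of control and 73.3% (66.1% to 79.7%) of hypothyroid FAP-gated cells, against 77.3% and 92.1% without thinning, and in 10.0% of 60 control and 0 of 15 hypothyroid thinned *Cdh5*-gated cells, a count of 0 that allows up to 21.8%. *Apoe*, another apolipoprotein gene, stood at 194 and 607 (ratio 3.13, 2.79 to 3.51), and *Lgals3*, which encodes galectin-3, at 22.9 and 94.8 (ratio 4.14, 3 to 5.74). *Vegfa*, the vascular endothelial growth factor, stood at 280.4 and 739 (ratio 2.63, 2.38 to 2.91). *Il6*, a cytokine, stood at 255 and 556 (ratio 2.18, 1.95 to 2.44), and *Ackr3*, a scavenger receptor of the chemokine *Cxcl12*, at 344 and 741 (ratio 2.15, 1.95 to 2.37). *Inmt*, an indole methyltransferase, stood at 106 and 246 (ratio 2.31, 1.95 to 2.75), and *Penk*, the proenkephalin gene, at 139.6 and 295 (ratio 2.11, 1.81 to 2.46). After thinning *Vegfa* was seen in 19.4% (16% to 23.1%) and 27.8% (21.4% to 35.1%) of FAP-gated cells, with intervals that overlap, and in 54.2% and 50.8% without thinning. *Il6* was seen in 9.38% and 15.9% after thinning and in 25.9% and 32.8% without, against 10% of 60 and 20% of 15 thinned *Cdh5*-gated cells. Over cells thinned before gating, a smaller set than that of these shares, the *Il6* ratio lay on the other side of 1 (0.812). *Angptl2*, an angiopoietin-like factor, was the lower gene among the angiogenic factors (86.9 and 32.3, ratio 0.371, 0.247 to 0.54).

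Of 23 measured chemokine and cytokine genes, 2 were higher and 6 lower, beside 1.37% and 1.44% of all genes measured in FAP-gated cells. *Ccl2*, the monocyte chemoattractant, stood at 8690.1 and 5441 CPM in control and hypothyroid (ratio 0.626, 0.608 to 0.645), and *Cxcl14* at 1379.5 and 746 (ratio 0.541, 0.499 to 0.585). *Il33*, an alarmin, stood at 351 and 185 (ratio 0.528, 0.448 to 0.619), *Cxcl10*, an interferon-induced chemokine, at 109.8 and 43.8 (ratio 0.398, 0.282 to 0.55), *Ccl8* at a ratio of 0.226, and *Cxcl5* is given above. Over cells thinned to 1000 UMIs before gating, *Cxcl10* and *Ccl8* lay above 1 (1.17 and 2.73). *Il33* lay above 1 by the mean over cells of the deposited log2 values (1.68). Neutrophil chemokine *Cxcl1* (1.17) and eosinophil chemokine *Ccl11* (1.46) were above 1 and did not pass the limit. The chemokine *Cxcl13* was counted as higher with 34 and 76 UMIs, of which 1 hypothyroid cell held 85.5%. The stress-response genes *Hmox1* (heme oxygenase, 3761 and 2088, ratio 0.555, 0.529 to 0.582) and *Mt1* (metallothionein, 1886 and 1075, ratio 0.57, 0.533 to 0.609) were lower. In BMP, TGF-beta and Wnt signalling, 3 of 32 were higher and 2 lower, beside the same shares over all genes. *Id3*, a target of BMP signalling, stood at 416 and 795 (ratio 1.91, 1.75 to 2.09), *Ccn2* at a ratio of 1.78 and *Id1* at 4.49, with 45.2% of the hypothyroid UMIs in 1 cell. Over cells thinned before gating, *Ccn2* and *Id1* lay below 1 (0.682 and 0.455). *Fst*, the activin antagonist follistatin, was at 0.574 and *Sfrp2*, a Wnt antagonist, at 0.186.

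Immediate early genes are transcribed within minutes of a stimulus. They were above 1 in 31 of 32 genes, with 7 higher, 0 lower and a median of 1.36. The shares over all genes measured in FAP-gated cells were 1.37% higher and 1.44% lower. *Fos* stood at 1446 and 2591 CPM (ratio 1.79, 1.7 to 1.88) and *Fosb* at 844 and 1524 (ratio 1.81, 1.69 to 1.93). *Zfp36*, which destabilises cytokine mRNAs, stood at 476 and 973 (ratio 2.05, 1.88 to 2.22), and *Socs3*, a feedback inhibitor of cytokine receptors, at 321 and 639 (ratio 1.99, 1.8 to 2.2). *Klf2* (1.83) and *Cebpd* (1.67) also passed, while *Jun* (1.36) and *Egr1* (1.37) did not. *Nr4a3* passed with a ratio of 2.67, but 1 hypothyroid cell held 59.1% of its UMIs, and without the cell with most UMIs in each library its ratio was 1.22. Of 15 measured glucocorticoid responsive genes, 2 were higher (*Cebpd* and *Tsc22d3*, 1.93) and 1 lower (*Mt1*). Of 17 heat shock and chaperone genes 1 was higher, the small heat shock protein gene *Hspb1* (1.91), and the median was 0.954.

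Genes of the thyroid hormone pathway itself were read from 2 lists, beside 1.37% of all genes higher and 1.44% lower. Of 15 measured receptor, transport and cofactor genes, 0 passed the limit, 4 were above 1 and the median was 0.958. *Thra* stood at 77.1 and 92.7 CPM (ratio 1.2, 0.931 to 1.54), and *Thrb* had 25 and 10 UMIs. The deiodinase gene *Dio2*, whose product activates the hormone, stood at 52.6 and 43.8 (ratio 0.831, 0.577 to 1.17) and the corepressor gene *Ncor1* at a ratio of 0.958. Of 20 measured genes known to respond to the hormone in some tissue, 2 were higher and 1 lower. They were the calcium pump of fast fibres *Atp2a1* (3.87), the redox regulator *Txnip* (210.1 and 379, ratio 1.8, 1.58 to 2.06) and *Myod1*, most of whose UMIs came from 1 cell. *Klf9*, a direct receptor target in other cell types, stood at 1262 and 1423 (ratio 1.13, 1.06 to 1.2), *Dbp* at 1.84, *Hr* at 0.905, *Gpd2* at 0.505 and *Me1* at 1.26. The direct repeat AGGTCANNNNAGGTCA, bound by the receptor, was found in 3 of 27025 promoters (0.0111%) and in 0 of the 66 higher and 0 of the 80 lower genes with a promoter in the table. Because the repeat is this rare over all promoters, a count of 0 cannot show whether these genes hold receptor sites. Of 14 circadian clock genes 12 were above 1 and 0 passed the limit (median 1.49), with *Per3* at 1.96, *Per1* at 1.86, *Nr1d1* at 1.71 and *Arntl*, which peaks in the opposite phase, at 0.818.

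Lists of FAP subsets and of metabolism are set beside the same shares over all genes, 1.37% higher and 1.44% lower. Of 20 genes of progenitor type FAPs 1 was higher (*Ackr3*) and 1 lower (the Wnt regulator *Dact2*, 78 and 4 UMIs), while *Pi16* (0.86), *Dpp4* (1.13) and *Cd34* (0.88) were near 1. Of 21 genes of interstitial type FAPs 2 were higher (*Apod*, *Inmt*) and 2 lower (*Cxcl14*, *Col15a1*). All 8 measured adipogenic genes were above 1 (median 1.37), and *Apoe* alone passed the limit, while *Cebpa* stood at 2.28, *Lpl* at 1.42 and *Plin2* at 1.69. Of 77 nuclear genes of oxidative phosphorylation 2 were higher, *Cox6a2* (2.03) and *Cox8b* (2.62), the forms used in muscle, and the median was 0.876. Of 13 mitochondrially encoded genes and of 80 ribosomal protein genes 0 passed the limit, with medians of 0.913 and 0.915.

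Transcripts of muscle fibres were higher in hypothyroid FAP-gated cells in 17 of 24 measured genes, with 0 lower and a median of 2.39. Their sum stood at 6827 CPM in control and 17859 in hypothyroid. The shares over all genes measured in FAP-gated cells were 1.37% higher and 1.44% lower. *Acta1*, skeletal muscle actin, stood at 1064 and 3959.5 (ratio 3.72, 3.55 to 3.9), and *Ckm*, muscle creatine kinase, at 405 and 1383 (ratio 3.42, 3.16 to 3.69). After thinning, *Acta1* was seen in 43.9% (39.5% to 48.4%) of control and 88.1% (82.3% to 92.5%) of hypothyroid FAP-gated cells, and in 55.0% and 93.3% of *Cdh5*-gated cells, which should lack it as well. The muscle fibre list moved to the lower side in *Cdh5*-gated cells without UMIs of *Pdgfra*, *Dcn* or *Ptprc*, described below. *Actn3*, *Tpm2*, *Atp2a1*, *Tuba4a* and *Trdn*, all abundant in fibres, were among the 10 genes that ranked first on the higher side in FAP-gated cells, with ratios of 4.06, 3.81, 3.87, 5.57 and 6.53. Myoglobin, *Mb*, was below 1 (0.566). With muscle fibre, mitochondrial, ribosomal and haemoglobin genes left out of the total, 100 genes were higher and 98 lower, and 98 genes on each side were shared with the counts above. Haemoglobin genes were lower in 4 of 4, with *Hbb-bs* at 247 and 37.5, of which 1 control cell held 66.9%. The part of fibre and red cell RNA in the other results was not tested.

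Several genes at the head of the higher side came from single cells. *Cxcl3*, a neutrophil chemokine, had 4 and 157 UMIs, and all hypothyroid UMIs lay in 1 cell. *Acta2* and *Tagln*, markers of smooth muscle, had 14 and 99 and 22 and 52 UMIs, with 99% and 90.4% of the hypothyroid UMIs in 1 cell, and ratios of 0.266 and 0.797 without the cell with most UMIs in each library. *Spp1*, osteopontin, had 22 and 44 UMIs, 72.7% of the latter in 1 cell. *Sox4* (2.99) had 47.5% in 1 cell and *Sox9* (2.69), a regulator of matrix genes in cartilage, 20.4%. Without the cell with most UMIs of each gene in each library, an alternative chosen after seeing the data, 68 genes were higher and 130 lower, of which 65 and 97 were shared with the counts above.

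FAP-gated cells were split by *Pi16*, which marks progenitor type FAPs, a split also chosen after seeing the data. Cells with at least 1 UMI of *Pi16* were 226 of 506 in control (44.7%, 40.3% to 49.1%) and 91 of 177 in hypothyroid (51.4%, 43.8% to 59.0%). *Mgp* was lower in both, with ratios of 0.0933 in *Pi16*-positive and 0.096 in *Pi16*-negative cells, and so were *Ace* (0.25 and 0.222) and *Prg4* (0.221 and 0.183). *Col1a1* stood at 0.36 (0.312 to 0.413) and 0.562 (0.488 to 0.645). *Apod* (2.93 and 2.18), *Apoe* (4.54 and 3.14) and *Vegfa* (2.41 and 2.95) were higher in both. Other ratios lay on different sides of 1: *Il33* stood at 0.329 (0.266 to 0.404) in *Pi16*-positive and 1.66 (1.24 to 2.19) in *Pi16*-negative cells, and *Cxcl14* at 1.19 (0.991 to 1.42) and 0.521 (0.475 to 0.571). The difference between the subsets was not tested.

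The 895 cells in neither gate are a further set in which the same genes were read. *Mgp* stood at 573 and 40.8 CPM in control and hypothyroid cells of neither gate (ratio 0.0711, 0.0527 to 0.094). *Col1a1* (0.337), *Sparc* (0.344), *Isg15* (0.407), *Cyp51* (0.355) and *Ccl2* (0.53) were lower past the limit there too, and *Apod* (2.72), *Vegfa* (2.57), *Il6* (3.31) and *Acta1* (3.82) higher. The immediate early genes did not pass the limit there: *Zfp36* stood at 0.995 (0.895 to 1.1), *Socs3* at 1.1 and *Fos* at 1.18 (1.11 to 1.26), and *Id3* at 1.01. FAP-like markers summed to 30569 and 24202 CPM in these cells, so the set is not free of FAP-like cells.

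**Figure D3:**
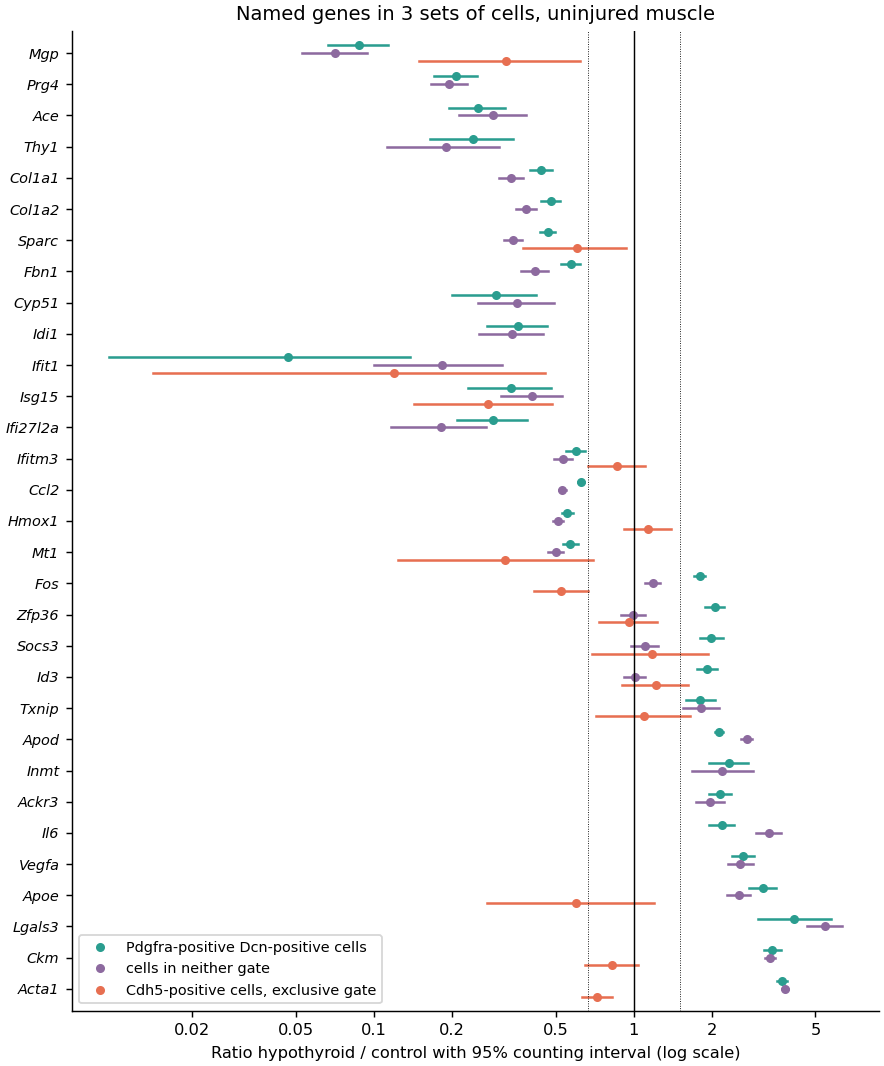
Ratio of hypothyroid over control (log scale) with its 95% counting interval for named genes in FAP-gated cells, in cells of neither gate and in *Cdh5*-gated cells without UMIs of *Pdgfra*, *Dcn* or *Ptprc*, with dotted lines at 1.5-fold. Ratios in the first 2 sets lie on the same side for matrix and lipid genes, and *Zfp36*, *Socs3* and *Id3* differ from 1 in FAP-gated cells and lie near 1 in cells of neither gate.

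In *Cdh5*-gated cells 1214 genes were measured over 257421 UMIs in 80 control and 72950 UMIs in 24 hypothyroid cells, with medians of 1790.5 and 1458 UMIs per cell. By the rule of size 54 genes were higher (4.45%) and 87 lower (7.17%). For 12 of the higher and 15 of the lower genes, 1 cell held over 50% of the UMIs in the library with more, and 33 and 62 were seen in at least 10 cells of that library. Without the cell with most UMIs of each gene, 26 were higher and 113 lower, of which 21 and 74 were shared with these counts. Several of the lower genes are markers of other cells that shared the control gate, given above: *Gsn* (310 and 1 UMIs), *Col1a1* (189 and 0), *Col1a2* (179 and 0), *Apod* (171 and 0) and *Fmod* (243 and 1). *Thbs4*, a thrombospondin of tendon, had 252 and 0, and *Selp*, the P-selectin gene, had 237 and 0, with 84.8% in 1 control cell. *Gm13889*, a gene without a known function, had 280 and 2, and *Dcn*, with 1078 and 3, belongs to the other gate. The exclusive gate therefore leaves out cells with a UMI of *Pdgfra*, *Dcn* or *Ptprc*, which leaves 64 control and 22 hypothyroid cells. It gave 46 higher (5.6%) and 70 lower (8.52%) genes of 822 measured, of which 28 and 37 were shared with the full gate. The exclusive gate was not free of other cells in control: the 10 mural-like markers, those of pericytes and smooth muscle, summed to 3222 CPM in control and 104 in hypothyroid, with 2 and 7 of them at 0, and 8 Schwann or glial-like markers to 401 and 0. *Acta2* had 162 and 1 UMIs there, *Tagln* 123 and 1, *Myh11* 117 and 4 and *Rgs5* 133 and 0. Their part in the lower genes of either gate, *Igfbp7*, *Mgp* and *Cxcl12* below among them, was not tested.

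Of 21 measured endothelial identity genes, 1 was higher and 2 lower, beside 4.45% and 7.17% of all genes measured in *Cdh5*-gated cells, 10 were above 1 and the median was 0.934. *Cldn5*, a tight junction protein of endothelium, stood at 478 CPM in control and 2344 in hypothyroid *Cdh5*-gated cells (ratio 4.91, 3.87 to 6.24, exclusive gate 4.92). *Plvap*, which forms the diaphragms of fenestrae, stood at 303 and 27.4 (ratio 0.0905, 0.0108 to 0.338, exclusive gate 0.0971), and *Vwf*, von Willebrand factor, had 49 and 1 UMIs. In the exclusive gate *Plvap* had 63 UMIs in 10 control cells and 2 UMIs in 1 hypothyroid cell. *Pecam1* (0.934 in the full and 0.695 in the exclusive gate), the VEGF receptor genes *Kdr* (0.83 and 0.748) and *Flt1* (0.711 and 0.598) and the capillary lipid carrier *Fabp4* (1.19 and 0.959) did not pass the limit. *Pdgfb*, the ligand that recruits pericytes, stood at 85.5 and 589 (ratio 6.9, 4.04 to 12.1, exclusive gate 6.92). *Pgf*, placental growth factor, had 2 and 65 UMIs, with 64.6% of the latter in 1 cell, and 2 and 63 in the exclusive gate. *Plaur*, the urokinase receptor (5.05 and 5.3), *Ets1*, an endothelial transcription factor (3.94 and 3.06), *Ptpre* (4.09 and 3.76), *Noct* (4.18 and 4.21), *Hbegf* (2.53 and 2.26) and the sphingosine 1-phosphate receptor gene *S1pr1* (2.65 and 2.32) were higher in both gates, the ratios in brackets being those of the full and the exclusive gate. For *Hbegf* 1 cell held 49% of the hypothyroid UMIs in the full and 55.6% in the exclusive gate. *Asb5* and *Sdc4* ranked among the first 10 with 100% and 93.2% of the hypothyroid UMIs in 1 cell, and *4930523C07Rik* stood at 4.48 and 3.95 in the full and the exclusive gate.

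Interferon stimulated genes were lower in 4 of 11 measured in *Cdh5*-gated cells, with 0 higher and a median of 0.529. Over all genes measured in this gate, 7.17% were lower and 4.45% higher. *Isg15* stood at 575 and 192 CPM (ratio 0.334, 0.178 to 0.578, exclusive gate 0.274), *Ifit1* at 0.131 (0.12), *Iigp1* at 0.416 (0.225) and *Gbp4* at 0.2 (0.191). *Cxcl12*, the ligand of *Cxcr4*, stood at 792 and 164 (ratio 0.208, 0.106 to 0.371, exclusive gate 0.111), *Igfbp7* at 0.39 (0.325), and *Icam1*, a leukocyte adhesion molecule, at 0.252 (0.227). *Ramp2*, the adrenomedullin co-receptor, stood at 0.275 (0.282). In the exclusive gate the hypothyroid side of *Ifit1*, *Gbp4*, *Icam1* and *Ramp2* rested on 2, 3, 4 and 6 UMIs. Of 30 measured immediate early genes 6 were lower and 1 higher (*Btg1*, 2.52 and 2.96 in the exclusive gate), with a median of 0.762 against 0.963 over all genes tested. In the exclusive gate 4 of 27 were lower and 1 higher, beside 8.52% lower and 5.6% higher of all genes measured there. Of the 27, 10 were above 1, and the median was 0.917 against 0.948. The difference from FAP-gated cells was not tested. *Fos* stood at 3046 and 1289 (ratio 0.423, 0.338 to 0.525, exclusive gate 0.526) and *Atf3* at 979 and 288 (ratio 0.294, 0.179 to 0.459; 0.227), while *Jun* (0.39 and 0.546) and *Egr1* (0.398 and 0.572) passed the limit in the full gate only. *Mgp* stood at 0.0499 in the full gate (919 and 13 UMIs) and at 0.322 (0.15 to 0.618) in the exclusive gate. *Acta1* stood at 2.07 in the full gate, with 72.3% of the control and 59.5% of the hypothyroid UMIs in 1 cell. It stood at 0.723 in the exclusive gate, with 74.6% of the control and 23.99% of the hypothyroid UMIs in 1 cell. Muscle fibre genes as a list moved as well: of 21 measured, 5 were higher and 0 lower in the full gate. In the exclusive gate 0 of 21 were higher and 6 lower, and their sum stood at 39054 CPM in control and 22093 in hypothyroid. The part of single cells in these changes of side was not tested.

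**Figure D4:**
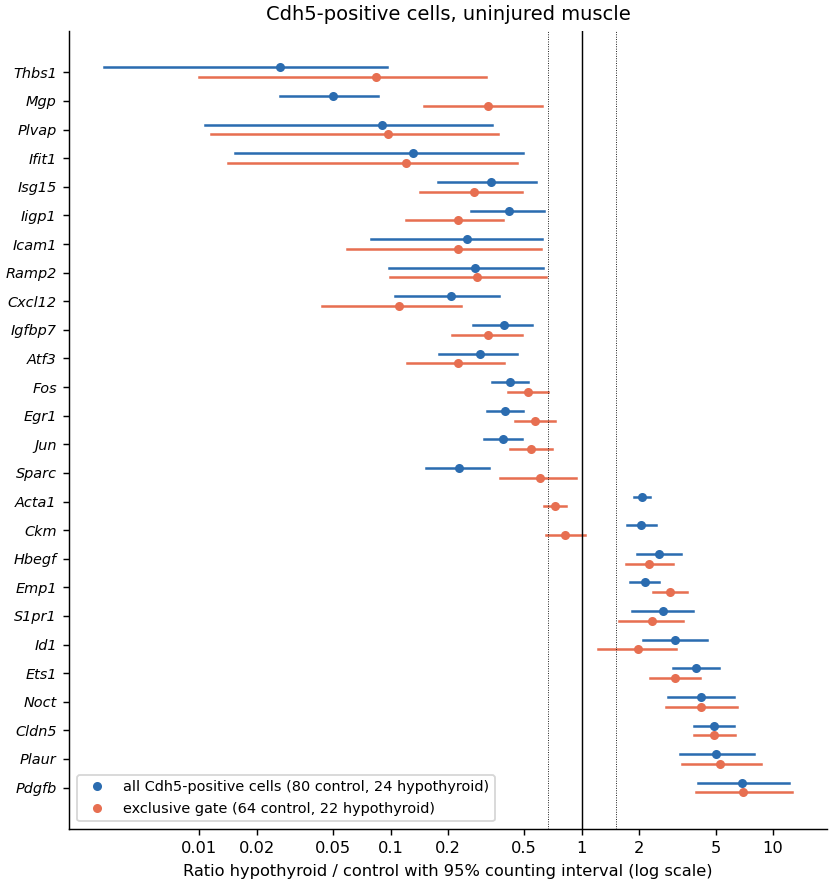
Ratio of hypothyroid over control (log scale) with its 95% counting interval for named genes in all *Cdh5*-gated cells and in the exclusive gate, with dotted lines at 1.5-fold. *Cldn5* and *Pdgfb* keep ratios near 5 and 7 in both gates, and *Mgp*, *Sparc* and *Acta1* move.

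Over all cells 9532 genes were measured, with 199 higher (2.09%) and 187 lower (1.96%). Haemoglobin genes, MHC class II genes and muscle fibre genes were among those higher. All 5 measured haemoglobin and heme synthesis genes were higher, with *Hbb-bs* at 179.5 CPM in control and 2120.2 in hypothyroid (ratio 11.8, 11 to 12.6) and *Alas2*, the erythroid enzyme of heme synthesis, with 7 and 53 UMIs; *Hba-a1*, *Hba-a2* and *Hbb-bt* stood at 17, 12.2 and 15.1. The cell with most UMIs held 47.5% of the control and 35.6% of the hypothyroid UMIs of *Hbb-bs*, and by the mean over cells of the deposited log2 values the ratios of 4 of the 5 lay below 1, at 0.453 for *Hbb-bs*, 0.902 for *Hba-a1*, 0.87 for *Hba-a2* and 0.834 for *Hbb-bt*. The 11 monocyte/macrophage-like markers summed to 58.3 and 350 CPM. Among them *Lyz2*, lysozyme, had 228 and 577 UMIs, with 99.6% and 54.6% in 1 cell, and *Cd14*, a lipopolysaccharide co-receptor, stood at 5.61. *Cd300a*, an inhibitory receptor of myeloid cells, had 11 and 48 UMIs. Of 5 MHC class II genes 4 were higher, with *Cd74*, the invariant chain, at 248 and 659 (ratio 2.65, 2.47 to 2.85) and *H2-Ab1* at 3.22, while 6 B cell-like markers summed to 254 and 434. The 9 T and NK cell-like markers summed to 79.4 and 73.1, with 0 past the limit, and to 168 and 117 in cells of neither gate, with 1 lower. Fewer cells of a type and less RNA per cell cannot be told apart in such sums.

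Of 28 muscle fibre genes 22 were higher over all cells, beside 2.09% of all genes measured. Their median was 2.31, and *Acta1* stood at 2194 and 8817 (ratio 4.02, 3.93 to 4.11). A few muscle genes differed far more than that. *Csrp3*, the muscle LIM protein of the Z-disc, had 4 and 189 UMIs (ratio 123, 47.2 to 455), from 4 control and 43 hypothyroid cells. *Ankrd2*, a stretch-responsive protein of the sarcomere, had 7 and 55 (ratio 20.4, 9.27 to 53.1), and *Myoz2*, the Z-disc protein of slow fibres, had 8 and 57 (ratio 18.5, 8.79 to 44.9). *Sln*, an inhibitor of the calcium pump, had 1 and 36, under the minimum of 50. The slow fibre genes *Tnnt1* (6 and 9 UMIs), *Tnni1* (6 and 3) and *Tnnc1* (5 and 4) were too rare to be measured. *Cnr1*, the cannabinoid receptor gene, had 21 and 105 UMIs, with 96.2% of the latter in 1 cell and a ratio of 0.611 without the cell with most UMIs in each library.

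On the lower side over all cells stood *Mgp* (782 and 54.7, ratio 0.07, 0.0582 to 0.0837), *Prg4* (0.201), *Thy1* (0.215), *Ace* (0.253) and *Col1a1* (0.373). Of 31 measured genes for fibrillar collagens and interstitial matrix 14 were lower and 0 higher, and of 31 interferon stimulated genes 12 were lower and 0 higher, with a median of 0.575 and *Ifit1* at 72.7 and 8.76 (ratio 0.121, 0.0729 to 0.188). The shares over all genes measured in all cells were 1.96% lower and 2.09% higher. *Tnc*, tenascin-C, stood at 49.7 and 5.25 (ratio 0.106, 0.054 to 0.187) and *Mfap4*, a microfibril protein, at 38.6 and 2.63 (ratio 0.0681, 0.0247 to 0.15), while *Col22a1*, the collagen of myotendinous junctions, and *Cytl1* had 75 and 0 and 57 and 0 UMIs, at least 9.62-fold and 7.31-fold lower. *Anxa8* (0.0852), *Gm13889* (0.125), *Cxcl5* (139 and 1 UMIs) and *Selp* (241 and 2, 83.4% of the former in 1 cell) complete the first 10. Tendon markers *Thbs4* (0.367) and *Tnmd* (0.3) and the smooth muscle gene *Myh11* (0.277) were lower, and 7 tenocyte-like and 8 Schwann or glial-like markers summed to 1220 and 466, and to 718 and 499, CPM. Over all cells 0 of 32 immediate early genes passed the limit either way.

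The injured libraries allow the same gates to be read at 5 and 14 dpi, with 303 control and 608 hypothyroid FAP-gated cells at 5 dpi and 1087 and 642 at 14 dpi. Of the 103 genes lower in uninjured FAP-gated cells, 99 were measured at 5 dpi and 61 of them (61.6%) were below 1, against 71.3% of all genes measured, with 29 lower past the limit (9.74% of all genes measured at 5 dpi) and 15 higher (3.35% of all). At 14 dpi 70 of 101 (69.3%) were below 1, against 56.7% of all genes, with 33 lower past the limit (5.18% of all) and 5 higher (0.955% of all). Of the 98 higher genes, 31 of 89 (34.8%, against 28.7%) were above 1 at 5 dpi. Past the limit, 9 were higher (3.35% of all) and 28 lower (9.74% of all). At 14 dpi 30 of 98 (30.6%, against 43.3%) were above 1. Past the limit, 13 were higher (0.955% of all) and 43 lower (5.18% of all). Over all genes measured, too, more were lower than higher past the limit on both days. Single genes showed each pattern. *Ace* stood at 46.1 and 15.7 CPM in control and hypothyroid at 5 dpi and 269.6 and 66.8 at 14 dpi (ratios 0.34 and 0.248), and *Thy1* (0.47 and 0.142) and *Fbn1* (0.595 and 0.534) were also lower on both days. *Apod* (2.01 and 2.27) and *Apoe* (5.31 and 3.7) were higher on both. *Mgp* stood at 765 and 804 at 5 dpi and 1931 and 882 at 14 dpi (ratios 1.05 and 0.457), and *Col1a1* at ratios of 0.6 and 0.835. Ratios on the other side of 1 on both days were seen for *Isg15* (1.85 and 1.29), *Ccl2* (4.11 and 2), *Txnip* (0.446 and 0.462) and *Acta1* (0.389 and 0.404). Whether the ratios differ between days was not tested.

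**Figure D5:**
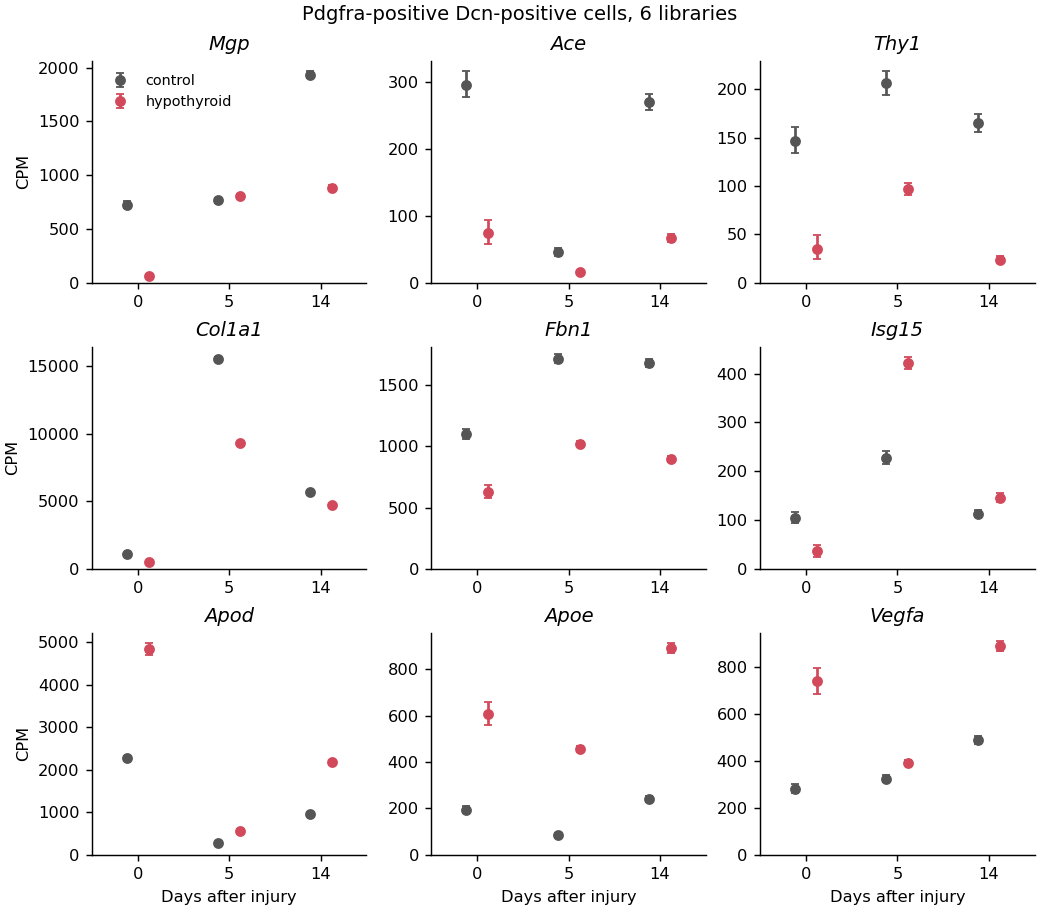
CPM of 9 genes in FAP-gated cells of each of the 6 libraries, by days after injury, with exact 95% Poisson intervals as bars and 1 pooled library per point. *Ace*, *Thy1* and *Fbn1* are lower and *Apod*, *Apoe* and *Vegfa* higher in hypothyroid muscle on all 3 days, *Mgp* is close in both diets at 5 dpi, and *Isg15* is lower at day 0 and higher at 5 and 14 dpi.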

How the data were processed

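Cells of collagenase- and dispase-digested TAM were profiled with the 10x 3′ V3 kit. Per the labels and the study's methods, the authors aligned reads to mm39 (GENCODE M30) with Cell Ranger in Partek Flow, removed cells by UMI number, gene number and mitochondrial content, and deposited log2(CPM + 1) values per cell, where CPM is counts per 1000000 UMIs of that cell. A doublet step is not given in the sources used here, and none was run. Deposited log2 CPM values were turned back into UMIs. In the 2 uninjured libraries 99.9303% of 2847092 values above 0 were whole within 0.05 UMI plus 0.0001 of the value. All UMIs in a gate were added up, scaled to CPM, and compared as a ratio with an exact (Clopper-Pearson) conditional binomial interval at 95%. Genes with fewer than 50 UMIs over both libraries and the gate genes were left out. Named genes were the first 10 each way in each population, ranked by the interval end nearest 1, plus members of the gene lists; Cd14, Hbegf, Ifi203, Ifih1, Lgals3, Lyz2, Myh11, S1pr1, Slfn5, Sox4, Sox9, Srebf1, Thy1 and Tnmd were named after their values were seen. The members and lists were chosen with earlier results of these data known. A few genes are not reported here. The calculation was tested on simulated data. Python 3.11.15, numpy 2.4.6, scipy 1.17.1, pandas 2.3.3 and matplotlib 3.10.9 were used. Coordinates of genes are mm39 as deposited, and promoter sequences are RefSeq, GRCm38.p6. Samples were grouped by diet and day from their labels. Alternatives covered the scaling, the minimum of UMIs, the limit, thinning to 1000 UMIs, the exclusive gate, the cell mean, the recovery of UMIs and the later columns.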

Additional observations from a re-analysis of the deposited data

Results flagged for a closer look

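Apod, Fos and Nr4a3 had ratios past the limit on opposite sides in FAP-gated and Cdh5-gated cells, and the difference was not tested. Apod stood at 2.13 in FAP-gated cells, and Cdh5-gated cells held 171 UMIs in control and 0 in hypothyroid. FAP-like markers summed to 7156 CPM in control and 178 in hypothyroid Cdh5-gated cells, and to 203 and 155 in the exclusive gate. The part of FAP-like cells in the Apod values of the Cdh5 gate was not tested. Fos stood at 1.79 and 0.423, and in the exclusive Cdh5 gate at 0.526. Nr4a3 stood at 2.67 and 0.049, with 59.1% of the hypothyroid UMIs of FAP-gated cells and 47.2% of the control UMIs of Cdh5-gated cells in 1 cell. Each gate held 1 library a side, so a check for outlying libraries was not possible.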

How the results depend on the processing

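The counts of higher and lower genes (98 and 103 in FAP-gated cells, 54 and 87 in Cdh5-gated cells and 199 and 187 in all cells) stayed within 1.5 times under centring on the median ratio and under a total without fibre, haemoglobin, mitochondrial and ribosomal genes. With no minimum of UMIs they were 174 and 125 in FAP-gated cells, 138 and 145 in Cdh5-gated cells and 323 and 208 in all cells. With a limit of 2-fold they were 36 and 38 in FAP-gated cells, 15 and 61 in Cdh5-gated cells and 96 and 75 in all cells. With cells thinned to 1000 UMIs before gating they were 19 and 23 in FAP-gated cells, 3 and 3 in Cdh5-gated cells and 94 and 79 in all cells, from fewer genes and cells. By the mean over cells of log2(CPM + 1) they were 234 and 815 in FAP-gated cells, 327 and 399 in Cdh5-gated cells and 110 and 954 in all cells, and with the smallest value of a cell as 1 UMI 229 and 235 in FAP-gated cells, 208 and 267 in Cdh5-gated cells and 341 and 324 in all cells, and the cause was not tested. Without the cell with most UMIs of each gene, chosen after seeing the data, the Cdh5-gated count of higher genes was 26, of which 21 were among the 54. With all columns of each file, which add cells of other libraries by construction, they were 760 and 338 in FAP-gated cells, 148 and 230 in Cdh5-gated cells and 1521 and 578 in all cells, and the ratio of the shares of FAP-gated cells was 0.541 instead of 0.763.

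Of the named ratios past the limit, 41 of 163 changed side of 1 with all columns: in FAP-gated cells Cxcl3 (0.516), Oasl1 (1.75), Adamts2 (1.05), Adamts5 (1.03), Angptl2 (1.5), Apoe (0.687), Col1a1 (2.64), Col1a2 (1.34), Col3a1 (1.35), Col5a1 (2.55), Col5a2 (1.41), Col6a3 (1.48), Cxcl10 (1.51), Cxcl14 (1.82), Fbn1 (1.17), Hmgcs1 (1.11), Ifi27l2a (1.03), Ifit3 (1.67), Isg15 (1.29), Loxl1 (2.0013), Penk (0.982), Rsad2 (1.95), Sfrp2 (5.82), Sparc (1.46), Thy1 (1.77) and Vegfa (0.728), in Cdh5-gated cells Pgf (0.922), Cldn5 (0.639), Plaur (0.716), Gbp4 (1.25), Ifit1 (1.5), Igfbp7 (1.17), Iigp1 (1.0003), Plvap (2.6) and Vwf (1.82), and in all cells Tnc (5.39), Ifit1 (1.05), Cd14 (0.609), Col1a1 (1.53), Lyz2 (0.808) and Thy1 (1.39). Over thinned cells the ratio changed side in FAP-gated cells Cxcl13 (0), Tagln (0), Spp1 (0), Ccl8 (2.73), Ccn2 (0.682), Cxcl10 (1.17), Id1 (0.455), Il6 (0.812) and Nr4a3 (0.819), and in Cdh5-gated cells Asb5 (0) and Sdc4 (0.932). By the mean over cells it changed side in FAP-gated cells Acta2 (0.942), Cxcl13 (0.992), Tagln (0.979), Myod1 (1.04) and Il33 (1.68), in Cdh5-gated cells Sdc4 (0.878), and in all cells Hba-a1 (0.902), Hbb-bt (0.834), Hbb-bs (0.453), Hba-a2 (0.87) and Cnr1 (0.992). Without the top cell it changed side in FAP-gated cells Cxcl3 (0), Acta2 (0.266) and Tagln (0.797), in Cdh5-gated cells Asb5 (0) and Sdc4 (0.371), and in all cells Cnr1 (0.611). In the exclusive gate it changed side in Cdh5-gated cells Acta1 (0.723). Centring, the other total and the smallest value as 1 UMI turned none of the named ratios past the limit. Of the named ratios not past the limit, 17 changed side of 1 with all columns, 16 over thinned cells, 7 by the mean over cells, 3 with the smallest value as 1 UMI, 2 without the top cell and 2 in the exclusive gate, Fabp4 in Cdh5-gated cells among them.

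No paired analysis was possible because each side is 1 pooled library, and for the same reason no library could be left out. Depth limits the Cdh5-gated cells most, with 72950 UMIs in 24 hypothyroid cells.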

Other observations

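Other gene groups of FAP-gated cells, not described above, are given beside 1.37% of all genes higher and 1.44% lower. Ace was the lower member of the vascular tone genes and Penk the higher member of the neuropeptide and cannabinoid signals. Of the glycolysis genes Aldoa, also a muscle fibre gene, was higher (2.09). Of 10 complement components and regulators 0 passed the limit, with a median ratio of 0.83, and of 27 oxidative stress and detoxification genes Txnip was higher and Mt1 and Hmox1 lower, with a median of 1.06.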
